A study of Homo sapiens with 12 samples.

Results

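The genes described here are 57 components and transcriptional targets of the canonical Wnt pathway, taken by name, with no threshold on a measured value. They comprise 10 Frizzled and LRP receptors, 2 genes of ligand processing and export, 5 Dishevelled and FRAT genes, 10 genes of the β-catenin destruction complex, 5 genes for β-catenin and its direct partners, 4 TCF/LEF factors, 4 TLE corepressors, 6 targets that feed back on the pathway and 11 other targets. The Illumina BeadChip held 47323 probes, which named 20046 genes, and 89 of these probes were named for 54 of the 57 alone. PORCN, TCF7 and EPHB2 were not analysed here. The brightest probe of 48 of the 54 was detected on at least 1 array, which means that its detection p-value against the negative controls was under 0.05.

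The study asked which transcripts change when ESRRG, a nuclear receptor without a known natural ligand, is expressed in gastric cancer cells. The 4 groups were AGS cells that had received the ESRRG vector (AGS ESRRG OE), AGS cells with the control vector (AGS control), and the corresponding groups of MKN45 cells (MKN45 ESRRG OE and MKN45 control), with 3 samples each. AGS and MKN45 are established human gastric adenocarcinoma lines, grown here in RPMI1640, and AGS is known to carry an activating mutation of the β-catenin gene. All groups were transduced with a lentivirus, so the controls share the infection. The ESRRG cDNA was driven by the EF1 promoter, and RNA was taken after 3 days. That the 3 samples of a group were separate cultures is stated nowhere in the sources used here, so the p-values reflect only how these samples varied, possibly for technical reasons. RNA of whole cultures was measured, so a change in every cell and a larger change in some cells cannot be told apart.

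In the absence of a Wnt signal, a complex of AXIN, APC, GSK3 and casein kinase 1 phosphorylates β-catenin, which is then ubiquitinated through the F-box protein β-TrCP and degraded. Wnt ligands bind Frizzled receptors and LRP co-receptors, Dishevelled is recruited, and the complex no longer degrades β-catenin, which enters the nucleus and turns TCF/LEF factors from repressors held by TLE proteins into activators. Several targets, among them AXIN2, RNF43, ZNRF3 and DKK1, restrain the pathway in turn. In the stomach and intestine, Wnt signaling maintains LGR5-positive stem cells and is often active in cancer.

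Values are quantile normalized log2 intensities, and 1 unit is a 2-fold change. A gene is represented by its brightest probe, and levels are compared between samples and not between probes. Adjusted p-values are from limma with Benjamini-Hochberg adjustment over all probes tested, and a probe passed the test at an adjusted p under 0.05. A probe was tested where it was detected on at least 3 of the 6 arrays compared (for the difference between the lines, of the 6 arrays of either line). The number of arrays limits the precision. Of the 3 probes for ESRRG itself only 1 was detected. This probe was at 7.11, 6.79 and 6.79 in AGS ESRRG OE samples, against 7.15, 7.34 and 7.31 in AGS control samples (-0.37 on the log2 scale, adjusted p = 0.00774 by limma). It averaged 6.94 ± 0.09 in MKN45 ESRRG OE and 6.91 ± 0.09 in MKN45 control samples (SD, n = 3 each), where it was detected on 2 of the 6 arrays and not tested. It was therefore not higher in the samples labelled ESRRG OE, and whether the vector's transcript contains the probe sequence is not given in the sources used here, so it does not check the labels. ESRRG OE and control below mean samples labelled so.

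The arrays labelled AGS and MKN45 resembled each other. Pearson correlations over 19304 probes were 0.982 to 0.986 between control arrays of different lines and 0.991 to 0.995 between control arrays of the same line, against 0.956 to 0.961 between ESRRG OE and control arrays of AGS and 0.966 to 0.974 in MKN45. Over 2-fold differences between the control groups were found for 91 probes (0.471%). MET, known to be amplified in MKN45 cells and singled out here after its values were seen, was at 9.06 ± 0.11 in AGS control and 9.24 ± 0.06 in MKN45 control samples (SD, n = 3 each), and the difference did not pass the test. LYZ, lysozyme, did set the lines apart and was 5.04-fold higher in AGS control than in MKN45 control samples (adjusted p = 4.90e-11 by limma), and CDH1 was lower (-0.55). Whether the labels stand for different cell lines was not tested. All 6 epithelial markers were tested, while 1 of 6 fibroblast, 2 of 5 immune and 0 of 5 endothelial markers with a probe were detected on enough arrays to be tested. In ESRRG OE samples KRT8 was lower (-0.84 in AGS and -0.82 in MKN45) and CLDN7 higher (1.27 and 0.40), and the immune marker CD68, which other cells also express, was higher by all 3 of its probes (0.54 to 0.73 in AGS and 0.36 to 1.44 in MKN45), while PTPRC, CD3E and CD14 were detected on 0 arrays. Their part in the results was not tested.

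In AGS cells 42 members were tested, of which 15 were higher and 11 lower in ESRRG OE samples and 16 did not pass. This was 61.9% of the members tested, where 49.2% of all 10920 genes tested passed, 23.1% higher and 26.0% lower. The median log2 fold change was -0.02 over the members and -0.02 over all genes. In MKN45 cells 44 members were tested, of which 8 were higher, 10 lower and 26 did not pass. This was 40.9%, close to the 39.1% of all 11240 genes tested (19.3% higher and 19.8% lower), with a median of -0.11 over the members and -0.01 over all genes. The changes of 16 members passed in the same direction in both lines, which is 38.1% of the 42 members tested in both, against 29.6% of the 10597 genes tested in both. It is 61.5% of the members called in AGS and 88.9% of those called in MKN45, against 59.3% and 72.9% over all genes. Passing in opposite directions was rare over all genes (61 of 10597) and was found for 0 members. Higher in both lines were FZD5, WLS, CSNK1A1, CSNK1D, TLE1, TLE2, TLE3 and SOX9, and lower in both were FZD3, DVL2, DVL3, AMER1, AXIN2, ZNRF3, DKK1 and LGR5. Groups without overlap were common. ESRRG OE and control samples did not overlap for 27 of the 42 members tested in AGS and 22 of the 44 in MKN45. Over all genes tested this held for 57.1% in AGS and 50.1% in MKN45. The balance of higher and lower calls depended on the normalization. Under median scaling, which brings the intensities of each array to a common median in place of quantile normalization and put the median change of all probes at 0.08 in AGS and 0.12 in MKN45, 17 members were higher and 6 lower in AGS and 10 were higher and 3 lower in MKN45.

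**Figure D1:**
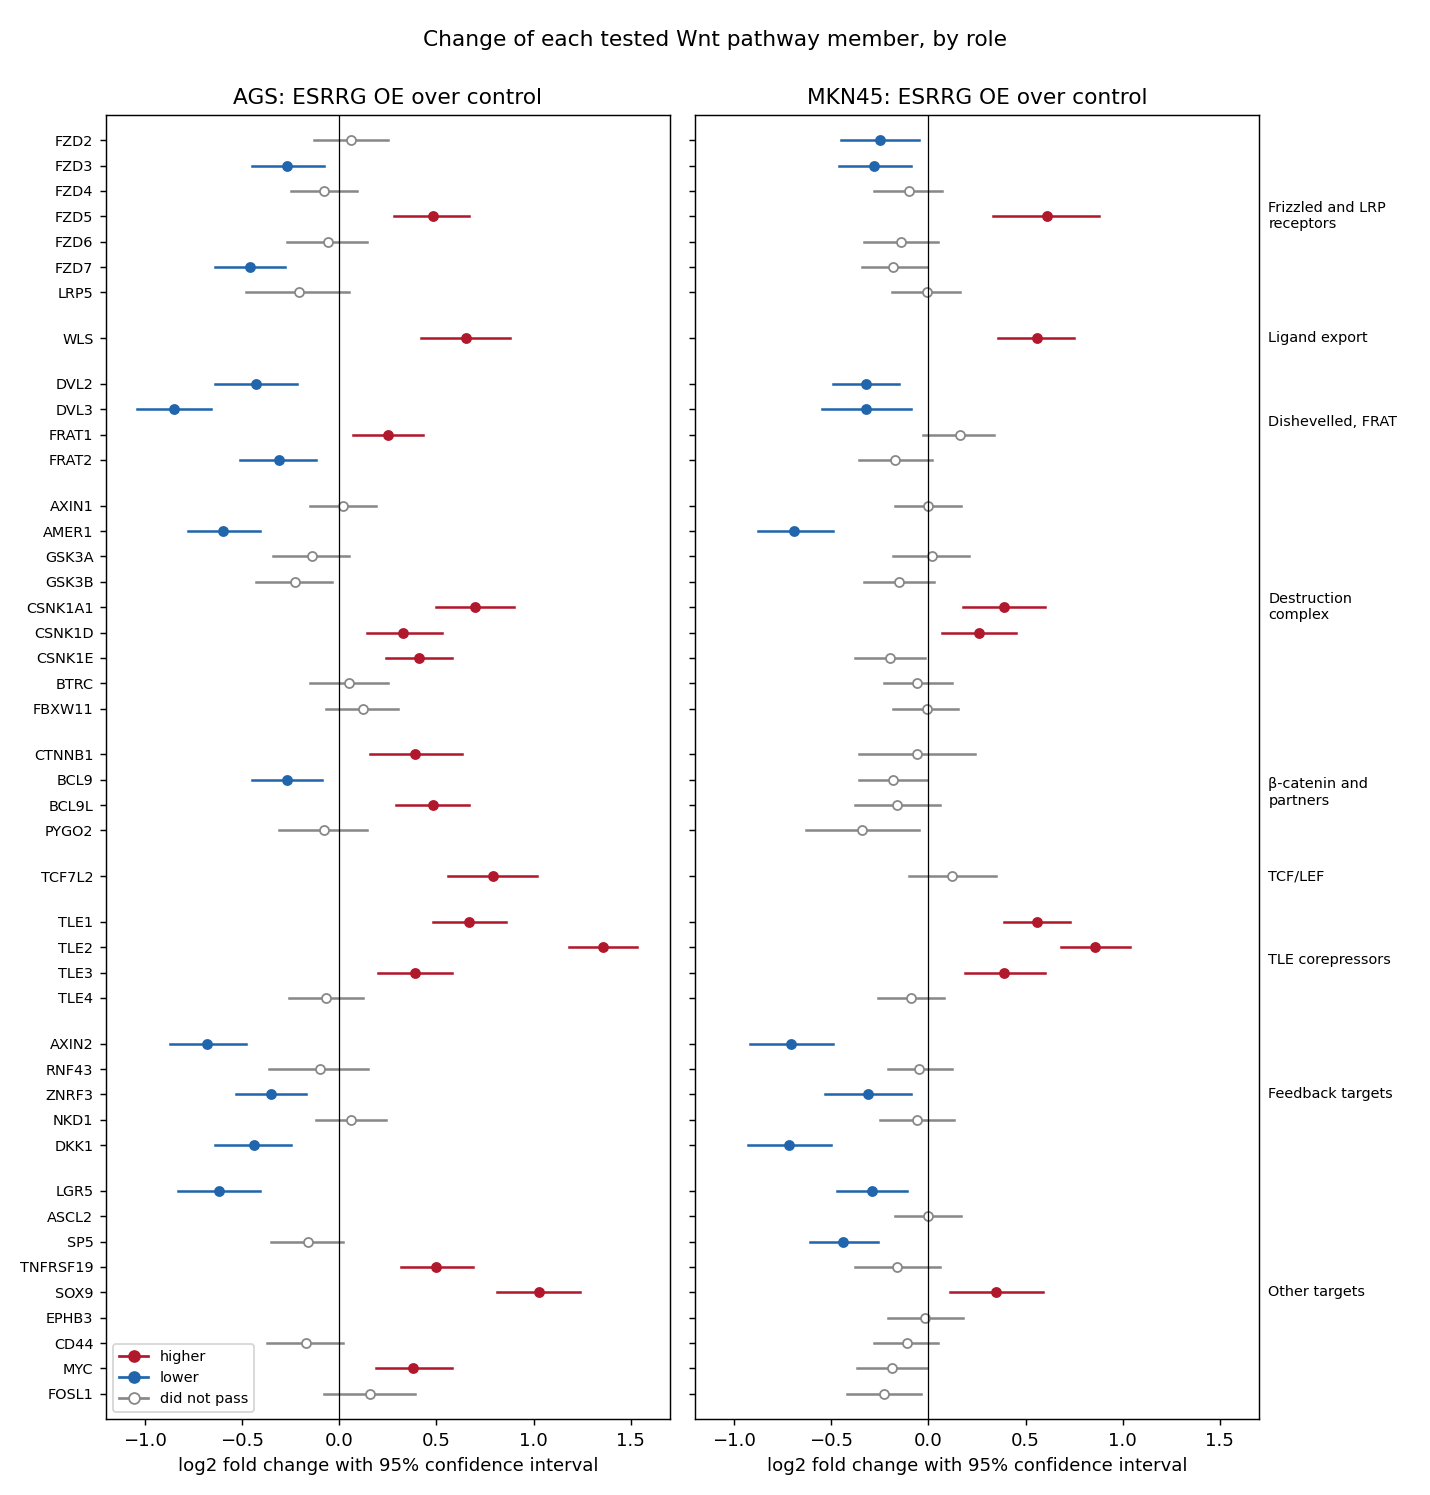
Log2 fold change (x axis, ESRRG OE over control) of the tested members, one row per gene grouped by role, in AGS (left) and MKN45 (right), with 95% confidence intervals from limma; filled points passed the adjusted test and open grey points did not, some of them with an unadjusted interval that leaves out 0. TLE1, TLE2, TLE3 and WLS lie to the right of 0 in both panels and AXIN2, DKK1, AMER1 and DVL2 to the left.

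Among the receptors, FZD5 was higher and FZD3 lower in both lines. FZD5, a Frizzled receptor of Wnt ligands, was at 8.66, 8.56 and 8.56 in AGS ESRRG OE samples, against 8.23, 7.97 and 8.16 in AGS control samples, and at 8.75, 8.77 and 8.73 in MKN45 ESRRG OE samples, against 8.52, 7.91 and 8.01 in MKN45 control samples. The groups did not overlap in either line, and the MKN45 control samples were spread most, with replicate 1 above the other two. The rise was 1.39-fold in AGS (log2 fold change 0.48, SE 0.09, adjusted p = 5.81e-04) and 1.52-fold in MKN45 (0.61, SE 0.13, adjusted p = 0.00237) by limma. FZD3 was at -0.27 in AGS and -0.28 in MKN45, and passed in neither line under median scaling (-0.13 and -0.12). FZD7 passed as lower in AGS (-0.46, SE 0.08, adjusted p = 4.14e-04, and -0.18 in MKN45, adjusted p = 0.0998 by limma), and the difference between the lines did not pass (adjusted p = 0.116). The other probe of FZD7 was at -0.00 in AGS and -0.05 in MKN45 and passed in neither. FZD2 passed as lower in MKN45 alone (-0.25, SE 0.09, adjusted p = 0.0482), and its direction turned (0.01) under median scaling. FZD4, FZD6 and the co-receptor LRP5 passed in neither line, with changes between -0.21 and -0.01. FZD1, FZD8 and the co-receptor LRP6 were each detected on 3 of the 12 arrays and were not tested.

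WLS, the carrier that brings lipidated Wnt ligands to the cell surface, rose in both lines by all 5 of its probes. Its brightest probe was at 10.96, 10.76 and 10.79 in AGS ESRRG OE samples, against 10.24, 9.96 and 10.36 in AGS control samples. In MKN45 it was at 10.73, 10.78 and 10.80 in ESRRG OE samples, against 10.41, 10.11 and 10.13 in control samples. The lowest ESRRG OE sample lay above the highest control sample in both lines. The rise was 1.57-fold in AGS (log2 fold change 0.65, SE 0.11, adjusted p = 1.48e-04 by limma) and 1.47-fold in MKN45 (0.56, SE 0.09, adjusted p = 3.97e-04 by limma). The other 4 WLS probes gave 0.88, 0.84, 0.56 and 0.32 in AGS and 0.82, 0.72, 0.36 and 0.59 in MKN45.

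The Dishevelled genes, whose proteins pass the signal from the receptors to the destruction complex, were lower wherever they were detected. DVL3 was at 7.78, 7.62 and 7.63 in AGS ESRRG OE samples, against 8.62, 8.40 and 8.55 in AGS control samples. The MKN45 values were 8.04, 7.88 and 7.98 in ESRRG OE samples, against 8.44, 8.02 and 8.41 in control samples. The AGS groups were apart, whereas MKN45 control replicate 2 fell within the range of the ESRRG OE samples. The fall was 1.80-fold in AGS (log2 fold change -0.85, SE 0.09, adjusted p = 2.46e-06 by limma) and 1.25-fold in MKN45 (-0.32, SE 0.11, adjusted p = 0.0311 by limma). The MKN45 call of DVL3 was lost under median scaling (-0.09, adjusted p = 0.568) and background correction (-0.48, adjusted p = 0.0700). DVL2 was at -0.43 (SE 0.10) in AGS and -0.32 (SE 0.08) in MKN45, with groups that did not overlap, and passed in neither line under median scaling (adjusted p = 0.0790 and 0.300). DVL1 was detected on 0 arrays. Of the GSK3-binding proteins, FRAT2 fell by 0.31 in AGS (SE 0.09, adjusted p = 0.0127 by limma). FRAT1 was detected on 3 AGS ESRRG OE arrays and 0 AGS control arrays and was at least 1.15-fold higher (adjusted p = 0.0248). This bound divides the mean of the ESRRG OE arrays by a floor for the control arrays, taken on each array as the lowest signal of any detected probe or the signal of FRAT1 itself, whichever was greater. In MKN45 neither passed (FRAT1 0.16, FRAT2 -0.17).

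Within the destruction complex the casein kinase genes CSNK1A1 and CSNK1D were higher and the adaptor AMER1 was lower in both lines, CSNK1E was higher in AGS, and the members AXIN1, GSK3A, GSK3B, BTRC and FBXW11 passed in neither line, at -0.23 to 0.12. AMER1, which binds APC at the plasma membrane, was at 7.79, 7.68 and 7.76 in AGS ESRRG OE samples, against 8.35, 8.44 and 8.23 in AGS control samples. In MKN45 AMER1 was at 8.04, 7.72 and 7.97 in ESRRG OE samples, against 8.65, 8.58 and 8.57 in control samples. The groups did not overlap in either line. AMER1 was 1.51-fold lower in AGS (log2 fold change -0.60, SE 0.09, adjusted p = 4.93e-05 by limma) and 1.61-fold lower in MKN45 (-0.69, SE 0.09, adjusted p = 7.43e-05 by limma). Its dimmer probe also fell in AGS (-0.31, adjusted p = 0.0104) and did not pass in MKN45 (-0.18, adjusted p = 0.0974). APC was detected on 0 arrays.

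CSNK1A1, the priming kinase of β-catenin, was at 9.46, 9.31 and 9.17 in AGS ESRRG OE samples, against 8.67, 8.63 and 8.54 in AGS control samples, and at 9.19, 9.28 and 9.10 in MKN45 ESRRG OE samples, against 8.97, 8.61 and 8.81 in MKN45 control samples. No ESRRG OE sample was as low as a control sample of its line. It was 1.63-fold higher in AGS (log2 fold change 0.70, SE 0.09, adjusted p = 2.08e-05 by limma) and 1.31-fold higher in MKN45 (0.39, SE 0.10, adjusted p = 0.00686 by limma), and its other 2 probes also passed in both lines (0.64 and 0.35 in AGS, 0.51 and 0.40 in MKN45). CSNK1D rose by less, 0.33 (SE 0.09) in AGS and 0.26 (SE 0.09) in MKN45, again with a second probe that passed in both lines. The MKN45 call of CSNK1D was lost after background correction. CSNK1E, which phosphorylates Dishevelled, was at 10.54, 10.53 and 10.46 in AGS ESRRG OE samples, against 10.08, 10.10 and 10.13 in AGS control samples, but at 9.99, 10.01 and 10.01 in MKN45 ESRRG OE samples, against 10.16, 10.12 and 10.35 in MKN45 control samples. It was thus above its control in every AGS sample and below it in every MKN45 sample, with log2 fold changes of 0.41 (SE 0.08, adjusted p = 7.45e-04 by limma) in AGS and -0.20 (SE 0.08, adjusted p = 0.0741 by limma) in MKN45, where it did not pass. A second probe of CSNK1E gave 0.39 and -0.19.

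CTNNB1, the gene of β-catenin itself, was higher in AGS and did not pass in MKN45. It was at 10.22, 10.04 and 10.14 in AGS ESRRG OE samples, against 9.53, 9.69 and 10.01 in AGS control samples. In MKN45 CTNNB1 was at 9.44, 9.83 and 9.99 in ESRRG OE samples, against 10.07, 9.60 and 9.78 in control samples. AGS control replicate 3 came close to the ESRRG OE samples, and the MKN45 groups overlapped widely. The log2 fold change was 0.39 in AGS (SE 0.11, adjusted p = 0.00970 by limma) and -0.06 in MKN45 (SE 0.14, adjusted p = 0.772 by limma). A second detected probe of CTNNB1 gave 0.56 in AGS (SE 0.11, adjusted p = 6.43e-04) and -0.10 in MKN45, and its other 5 probes were detected on 0 arrays. With all probes of the gene averaged, CTNNB1 did not pass in AGS (0.15, adjusted p = 0.0615), nor after background correction (0.44, adjusted p = 0.0563).

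The 2 coactivators that tether Pygopus proteins to β-catenin received opposite calls in AGS cells, of which that of BCL9 was not stable. BCL9L was at 9.26, 9.16 and 9.12 in AGS ESRRG OE samples, against 8.67, 8.59 and 8.84 in AGS control samples, and at 8.86, 8.74 and 8.57 in MKN45 ESRRG OE samples, against 8.98, 8.69 and 8.97 in MKN45 control samples. Only the AGS groups were apart (log2 fold change 0.48, SE 0.09, adjusted p = 5.36e-04 by limma, and -0.16 in MKN45, SE 0.10, adjusted p = 0.257 by limma). BCL9 was lower in AGS (-0.27, SE 0.09, adjusted p = 0.0175) and at -0.18 in MKN45 (adjusted p = 0.0962). Its AGS call was lost in 5 of 17 alternatives, with changes of -0.49 to -0.11 over them. These were median scaling and leaving out AGS control replicate 1 or 3 or AGS ESRRG OE replicate 2 or 3. PYGO2 passed in neither line (-0.08 in AGS, -0.34 in MKN45). The brightest probe of CTNNBIP1, an inhibitor that blocks the binding of TCF to β-catenin, was detected on 0 arrays.

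Of the TCF/LEF factors only TCF7L2 was measured above background. TCF7L2, which encodes TCF4, was at 10.15, 10.12 and 9.80 in AGS ESRRG OE samples, against 9.11, 9.19 and 9.41 in AGS control samples. In MKN45 it was at 8.67, 9.06 and 9.09 in ESRRG OE samples, against 8.82, 8.82 and 8.82 in control samples. It was 1.73-fold higher in AGS, with no overlap (log2 fold change 0.79, SE 0.11, adjusted p = 3.15e-05 by limma), while MKN45 ESRRG OE replicate 1 lay below and the other replicates above the control samples (0.12, SE 0.10, adjusted p = 0.408 by limma). Under median scaling the rise in MKN45 also passed (0.41, adjusted p = 0.0416). LEF1 lay between 6.66 and 6.91 in AGS ESRRG OE samples and between 6.69 and 6.90 in AGS control samples, and between 6.59 and 6.82 in MKN45 ESRRG OE samples and between 6.70 and 6.89 in MKN45 control samples. Both LEF1 probes and the probe of TCF7L1 were detected on 0 arrays, so no fold is given.

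The TLE genes, Groucho corepressors that occupy TCF/LEF factors when β-catenin is absent, had 3 of 4 members higher in both lines. TLE2 had the largest change of any member in either line. It was at 8.67, 8.59 and 8.51 in AGS ESRRG OE samples, against 7.27, 7.17 and 7.26 in AGS control samples, and at 8.11, 8.08 and 8.02 in MKN45 ESRRG OE samples, against 7.17, 7.13 and 7.34 in MKN45 control samples. The gap between the groups was several times their range in both lines. TLE2 was 2.56-fold higher in AGS (log2 fold change 1.36, SE 0.08, adjusted p = 9.30e-09 by limma) and 1.81-fold higher in MKN45 (0.86, SE 0.08, adjusted p = 5.62e-06 by limma), and background correction, which enlarges the changes of dim probes, gave 2.35 and 1.68. TLE1 was at 10.50, 10.34 and 10.58 in AGS ESRRG OE samples, against 9.86, 9.72 and 9.84 in AGS control samples, and at 10.06, 10.03 and 10.17 in MKN45 ESRRG OE samples, against 9.55, 9.47 and 9.56 in MKN45 control samples. It did not overlap with its controls, at 0.67 (SE 0.09, adjusted p = 2.45e-05 by limma) in AGS and 0.56 (SE 0.08, adjusted p = 1.20e-04 by limma) in MKN45. TLE3 rose by 0.39 in both lines (SE 0.09 in AGS and 0.10 in MKN45). TLE4 stood at -0.07 (AGS) and -0.09 (MKN45) and passed in neither.

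**Figure D2:**
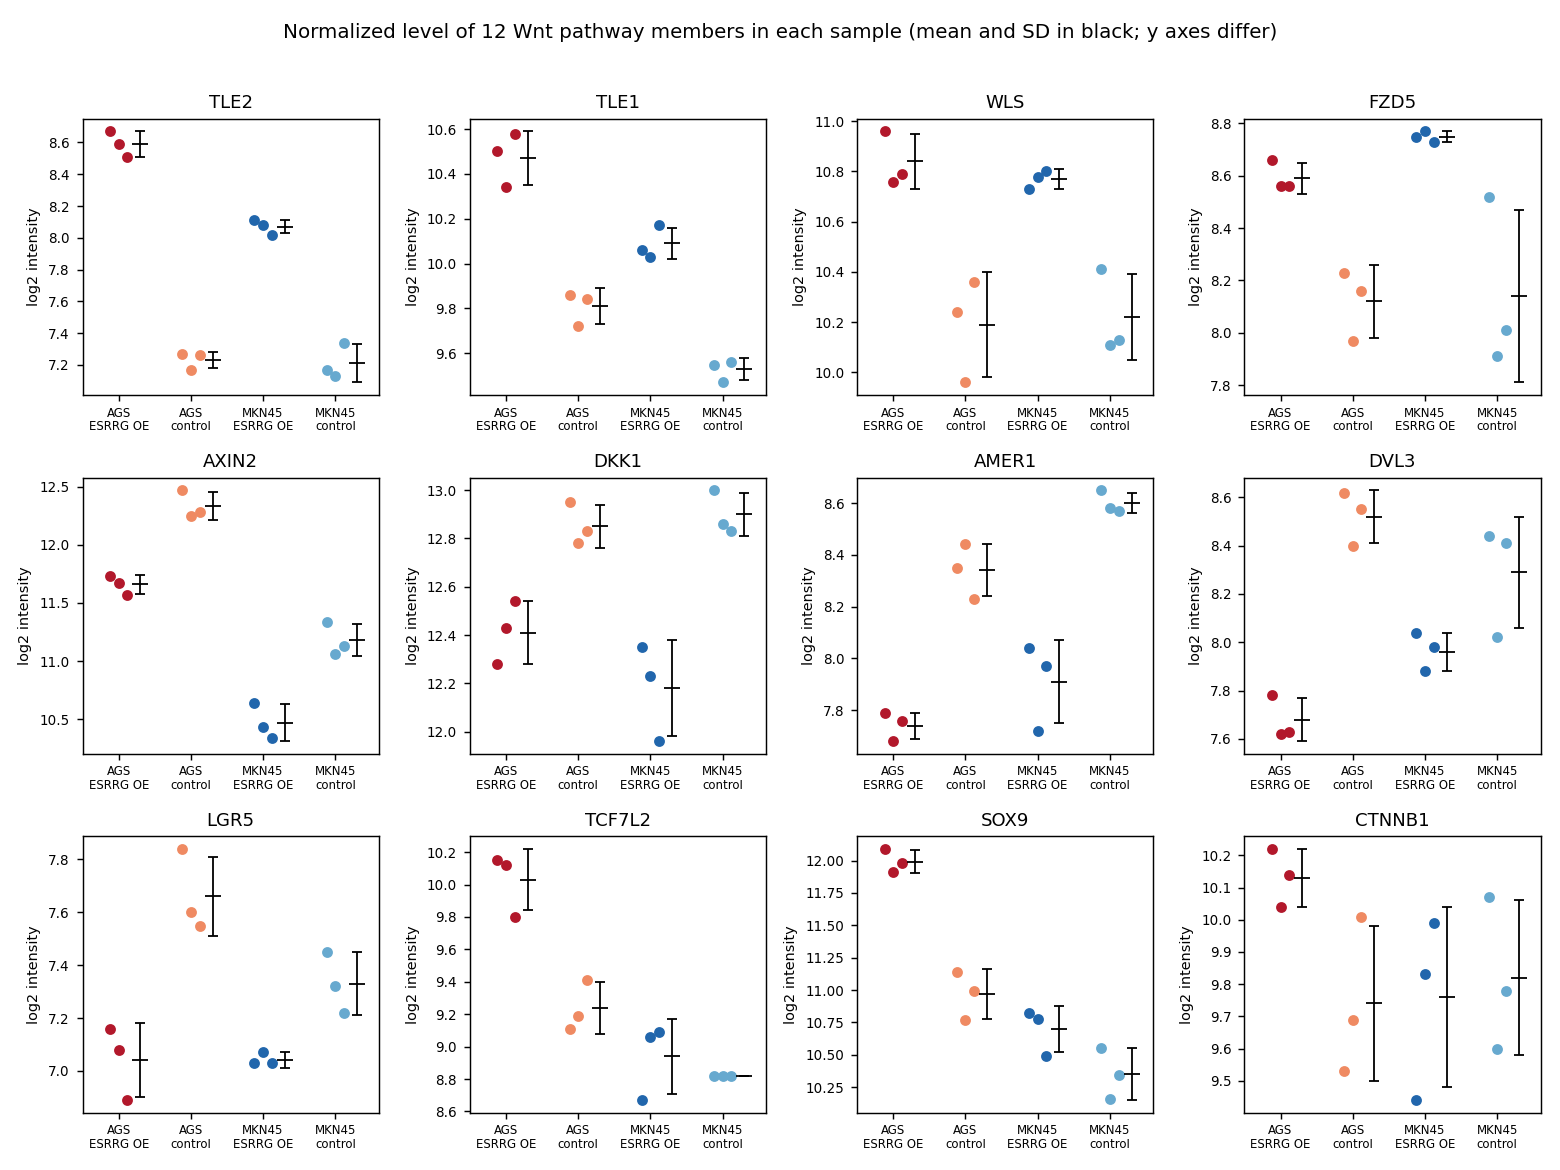
Normalized log2 intensity (y axis, a scale of its own in each panel) of 12 members in the 3 samples of each group (coloured points), with the group mean and SD (n = 3) in black beside them. TLE2, TLE1, WLS and FZD5 are higher and AXIN2, DKK1, AMER1 and LGR5 lower in the ESRRG OE samples of both lines without overlap, TCF7L2 is apart in AGS only, and AXIN2 and SOX9 also differ between the control groups.

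Among the targets that feed back on the pathway, AXIN2, DKK1 and ZNRF3 fell in both lines, and RNF43 and NKD1 passed in neither (-0.10 to 0.06). AXIN2, an inducible scaffold of the destruction complex and a widely used readout of Wnt activity, was at 11.73, 11.67 and 11.57 in AGS ESRRG OE samples, against 12.47, 12.25 and 12.28 in AGS control samples. In MKN45 it was at 10.64, 10.43 and 10.34 in ESRRG OE samples, against 11.34, 11.06 and 11.13 in control samples. The falls were of like size, 1.60-fold in AGS (log2 fold change -0.68, SE 0.09, adjusted p = 2.27e-05 by limma) and 1.63-fold in MKN45 (-0.71, SE 0.10, adjusted p = 1.22e-04 by limma), with a difference between the lines of 0.03 (95% confidence interval -0.25 to 0.32). Under median scaling the fall in MKN45 was -0.43 and still passed (adjusted p = 0.0318).

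DKK1, a secreted antagonist of the LRP co-receptors, was at 12.28, 12.43 and 12.54 in AGS ESRRG OE samples, against 12.95, 12.78 and 12.83 in AGS control samples. DKK1 in MKN45 was at 12.35, 12.23 and 11.96 in ESRRG OE samples, against 12.86 and 12.83 in control replicates 2 and 3 and a higher value in control replicate 1. All ESRRG OE samples lay below all control samples. The log2 fold change was -0.44 in AGS (SE 0.09, adjusted p = 0.00114 by limma) and -0.72 in MKN45 (SE 0.10, adjusted p = 1.26e-04 by limma). The dimmer of its 2 probes gave larger values, -0.71 in AGS and -0.84 in MKN45. ZNRF3, a ubiquitin ligase that removes Frizzled receptors from the surface, fell by 0.35 in AGS and 0.31 in MKN45 (SE 0.08 and 0.10), and neither fall passed under median scaling (-0.19, adjusted p = 0.139, and -0.11, adjusted p = 0.588). APCDD1 was detected on 0 arrays.

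The other targets did not move one way. LGR5, the R-spondin receptor that marks stem cells, was at 7.16, 7.08 and 6.89 in AGS ESRRG OE samples, against 7.84, 7.60 and 7.55 in AGS control samples, and at 7.03, 7.07 and 7.03 in MKN45 ESRRG OE samples, against 7.45, 7.32 and 7.22 in MKN45 control samples. The probe was detected on 11 of the 12 arrays, and the ESRRG OE samples lay below all their controls in both lines. LGR5 fell 1.54-fold in AGS (log2 fold change -0.62, SE 0.10, adjusted p = 1.38e-04 by limma) and 1.22-fold in MKN45 (-0.29, SE 0.08, adjusted p = 0.0149 by limma), and background correction gave -1.45 and -0.78. The MKN45 call was lost under median scaling (-0.24, adjusted p = 0.0940). SP5, a zinc finger factor induced by Wnt, was lower in MKN45 (-0.44, SE 0.08, adjusted p = 0.00104 by limma) and at -0.16 in AGS (adjusted p = 0.144). The fall in MKN45 was lost under median scaling (-0.11, adjusted p = 0.521).

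SOX9, an HMG box factor of progenitor cells, rose in both lines. It was at 12.09, 11.91 and 11.98 in AGS ESRRG OE samples, against 11.14, 10.77 and 10.99 in AGS control samples, and at 10.82, 10.78 and 10.49 in MKN45 ESRRG OE samples, against 10.55, 10.16 and 10.34 in MKN45 control samples. MKN45 ESRRG OE replicate 3 lay below the highest control sample. The log2 fold change was 1.03 in AGS (SE 0.10, adjusted p = 1.07e-06 by limma) and 0.35 in MKN45 (SE 0.11, adjusted p = 0.0276 by limma). The MKN45 call of SOX9 was lost after background correction.

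TNFRSF19, a receptor of the tumor necrosis factor family also called TROY, was at 9.48, 9.45 and 9.51 in AGS ESRRG OE samples, against 9.03, 8.82 and 9.07 in AGS control samples, and at 9.32, 9.58 and 9.70 in MKN45 ESRRG OE samples, against 9.80, 9.62 and 9.65 in MKN45 control samples. It passed in AGS (log2 fold change 0.50, SE 0.09, adjusted p = 2.88e-04 by limma) and not in MKN45 (-0.16, SE 0.10, adjusted p = 0.252 by limma), where the groups overlapped. MYC, a bHLH zipper factor that promotes growth, was at 11.86, 11.81 and 11.62 in AGS ESRRG OE samples, against 11.43, 11.27 and 11.43 in AGS control samples. The MKN45 values of MYC were 11.06, 10.91 and 10.99 in ESRRG OE samples, against 11.29, 11.06 and 11.18 in control samples. MYC passed in AGS (0.38, SE 0.09, adjusted p = 0.00334 by limma) and not in MKN45 (-0.19, SE 0.09, adjusted p = 0.104 by limma), and its second probe passed in neither (0.24 in AGS and -0.14 in MKN45). CD44 and FOSL1 passed in neither line by their brightest probes (-0.23 to 0.16), and 1 of the dimmer probes of CD44 was higher in AGS (0.25, adjusted p = 0.0208), detected on 3 ESRRG OE and 0 control arrays. ASCL2 and EPHB3 were tested in MKN45 only and did not pass (0.00 and -0.02). PROX1, detected on 2 AGS ESRRG OE arrays, 1 MKN45 ESRRG OE array and 0 control arrays, was not tested.

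**Figure D3:**
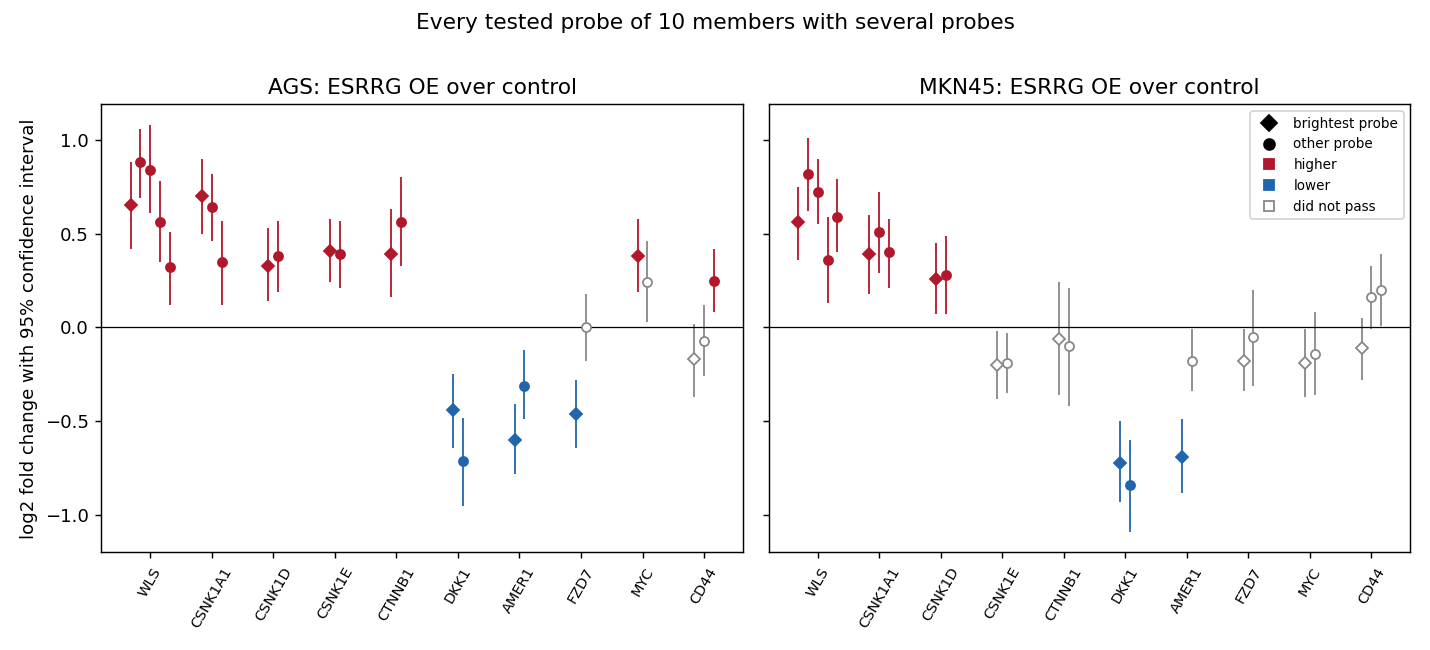
Log2 fold change (y axis, ESRRG OE over control, with 95% confidence intervals from limma) of every tested probe of 10 members that have several probes, in AGS (left) and MKN45 (right), with the brightest probe as a diamond and other probes as circles. All 5 probes of WLS and all 3 of CSNK1A1 lie above 0 in both lines and both probes of DKK1 below 0, while the probes of FZD7 and CD44 differ in AGS.

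Probes of the same gene seldom disagreed on the change with ESRRG OE. In AGS 18 further probes were tested and 15 received the call of the brightest probe of their gene, with FZD7, MYC and CD44 differing, and in MKN45 it was 19 of 20, with AMER1 differing. In both lines 0 probes passed in the direction opposite to the brightest probe. For the difference between the lines, 17 of 20 further probes received the same call, with CTNNB1, MYC and TNFRSF19 differing. Between the control groups it was 13 of 19, with AXIN1, CD44, FZD7, LRP5 and WLS differing.

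Promoter windows of 300 bases (250 before to 50 after an annotated start; RefSeq, GRCh38.p14) were at hand for 40 of the 57 members. They are printed for the members whose calls held in both lines under every alternative (TLE1, TLE2 with its 2 annotated starts, WLS, AMER1 and DKK1, with 1 of the 2 largely overlapping windows of WLS; AXIN2 had no window) and for SP5, the one member with a probe whose window held a motif searched for. The motifs were CTTTGAT, a core of TCF/LEF sites, and AAGGTCA, the half-site bound by the estrogen-related receptors, each on both strands, and they do not overlap each other. Capitals mark the match, CTTTGAT in the window of SP5, which begins 109 bases before the start. A match is a description of the letters and not of binding.
TLE1, chr9:81689498-81689797, minus strand: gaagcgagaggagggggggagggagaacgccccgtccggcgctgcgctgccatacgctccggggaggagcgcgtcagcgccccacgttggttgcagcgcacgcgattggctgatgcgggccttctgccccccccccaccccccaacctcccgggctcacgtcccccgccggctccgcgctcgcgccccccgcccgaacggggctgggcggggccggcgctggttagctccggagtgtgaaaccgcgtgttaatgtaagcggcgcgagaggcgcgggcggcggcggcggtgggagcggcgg
TLE2, chr19:3029231-3029530, minus strand: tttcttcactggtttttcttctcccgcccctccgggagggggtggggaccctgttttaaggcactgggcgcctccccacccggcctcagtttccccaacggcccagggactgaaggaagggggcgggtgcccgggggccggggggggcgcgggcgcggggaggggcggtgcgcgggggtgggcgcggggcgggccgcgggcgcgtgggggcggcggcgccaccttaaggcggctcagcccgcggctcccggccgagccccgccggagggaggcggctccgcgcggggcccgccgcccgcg
TLE2, chr19:3047586-3047885, minus strand: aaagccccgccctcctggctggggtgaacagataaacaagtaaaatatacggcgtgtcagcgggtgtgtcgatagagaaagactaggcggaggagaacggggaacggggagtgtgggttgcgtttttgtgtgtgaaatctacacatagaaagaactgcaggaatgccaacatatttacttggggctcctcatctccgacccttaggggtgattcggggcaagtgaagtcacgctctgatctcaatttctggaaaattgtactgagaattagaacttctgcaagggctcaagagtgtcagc
WLS, chr1:68232474-68232773, minus strand: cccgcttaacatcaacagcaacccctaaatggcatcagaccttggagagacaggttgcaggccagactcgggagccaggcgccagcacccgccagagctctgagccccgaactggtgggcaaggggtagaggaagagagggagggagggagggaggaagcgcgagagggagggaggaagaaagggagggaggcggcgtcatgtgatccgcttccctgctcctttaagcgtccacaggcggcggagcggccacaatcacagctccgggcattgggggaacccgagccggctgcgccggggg
AMER1, chrX:64205659-64205958, minus strand: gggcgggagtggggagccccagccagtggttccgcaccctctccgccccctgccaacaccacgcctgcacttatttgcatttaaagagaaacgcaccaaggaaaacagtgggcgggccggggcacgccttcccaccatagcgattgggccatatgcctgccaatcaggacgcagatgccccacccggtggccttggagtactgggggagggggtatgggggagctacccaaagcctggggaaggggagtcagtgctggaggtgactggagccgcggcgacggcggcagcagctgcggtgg
DKK1, chr10:52314031-52314330, plus strand: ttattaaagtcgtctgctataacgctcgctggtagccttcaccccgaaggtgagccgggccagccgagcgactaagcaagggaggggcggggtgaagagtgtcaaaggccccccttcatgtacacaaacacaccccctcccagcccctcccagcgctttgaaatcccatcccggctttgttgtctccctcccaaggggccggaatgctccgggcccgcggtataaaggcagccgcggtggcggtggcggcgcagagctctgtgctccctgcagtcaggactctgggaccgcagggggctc
SP5, chr2:170715087-170715386, plus strand: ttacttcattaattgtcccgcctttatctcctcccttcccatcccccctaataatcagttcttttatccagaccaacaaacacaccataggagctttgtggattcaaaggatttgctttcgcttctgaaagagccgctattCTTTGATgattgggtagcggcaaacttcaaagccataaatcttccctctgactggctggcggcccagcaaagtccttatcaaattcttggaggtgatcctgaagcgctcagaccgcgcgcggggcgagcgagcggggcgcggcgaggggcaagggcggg

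Over all 35116 windows, 2.62% held CTTTGAT or its reverse complement and 3.92% held AAGGTCA or its reverse complement. The 40 members had 55 windows, as some have several starts. Each motif was found in 1 of these windows (that of SP5, and 1 of TCF7, which had no probe here). Of the 16 members called in the same direction in both lines 10 had a window, and 0 of these held either motif. The windows of members had a median GC content of 67%, against 58.7% over all windows, and the printed ones ranged widely, with 79.7% and 49.3% for the 2 starts of TLE2.

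Whether the change differed between AGS and MKN45 was tested as the interaction of line and vector over all 12 arrays. Of 44 members tested, 8 passed (18.2%), and 10.1% of all 11563 genes passed (5.26% more positive and 4.86% more negative). The change was more positive in AGS for CSNK1E (difference 0.61, SE 0.11, adjusted p = 0.00182 by limma), BCL9L (0.64), TCF7L2 (0.67), TLE2 (0.50), TNFRSF19 (0.66), SOX9 (0.68) and MYC (0.57), and more negative for DVL3 (-0.52, SE 0.14, adjusted p = 0.0302 by limma). TLE2, SOX9 and DVL3 moved in the same direction in both lines and by more in AGS, whereas CSNK1E, BCL9L, TNFRSF19 and MYC were higher in AGS and below 0, without passing, in MKN45. These differences depended on the normalization. Under median scaling 0 of the 8 passed by limma, although each kept its direction, 9 of the 44 members had an unadjusted p under 0.05, and the median difference of all probes was -0.06. After background correction 3 were left, CSNK1E, BCL9L and TNFRSF19. Calls over all 21080 probes also became fewer, from 915 higher and 869 lower with quantile normalization. They were 183 and 318 under median scaling, and 484 and 485 after background correction. For TNFRSF19 the difference did not pass with its probes averaged (0.13, adjusted p = 0.352). That average takes in dimmer probes of TNFRSF19 that were detected on 6, 2 and 0 of the 12 arrays.

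**Figure D4:**
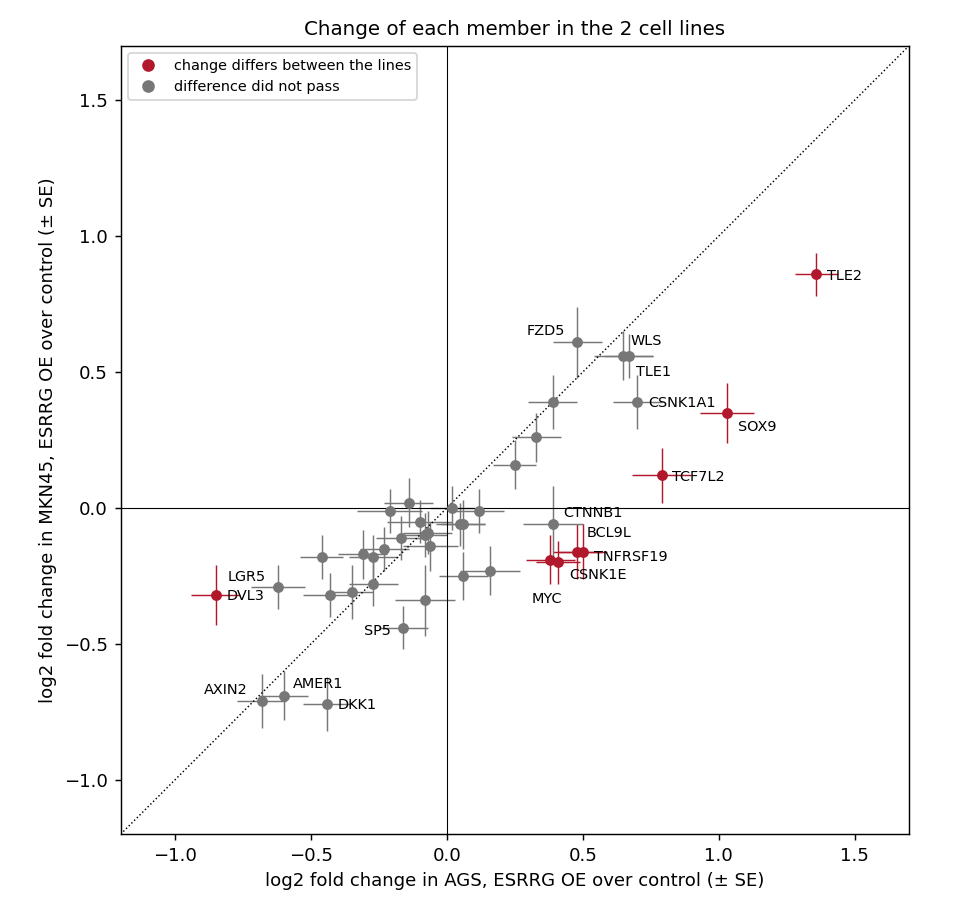
Log2 fold change of each member tested in both lines, AGS on the x axis and MKN45 on the y axis (ESRRG OE over control, bars ± SE), with members whose change passed the test of the difference between the lines in red and the dotted line marking equal change. AXIN2, AMER1, WLS and TLE1 lie near the dotted line, TLE2, SOX9 and TCF7L2 lie to its right, and CSNK1E, BCL9L, TNFRSF19 and MYC lie right of 0 and below 0.

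For members whose difference did not pass, the interval shows what these arrays can tell. The 95% confidence interval of the difference was -0.21 to 0.40 for WLS, -0.13 to 0.35 for TLE1, -0.17 to 0.35 for AMER1, -0.02 to 0.57 for DKK1 and 0.05 to 0.86 for CTNNB1. The last of these leaves out 0 before adjustment, and its second probe passed (0.67, SE 0.20, adjusted p = 0.0447 by limma).

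The starting level in the control samples was compared between the lines for 42 members, and 9 were higher and 2 lower in AGS (26.2%, against 12.5% of all 10833 genes tested, 7.08% higher and 5.37% lower). Line, culture and label cannot be told apart in this comparison. The largest difference was that of AXIN2, 2.23-fold higher in AGS control than in MKN45 control samples (log2 difference 1.16, SE 0.10, adjusted p = 5.60e-07 by limma, values above), so that even AGS ESRRG OE samples lay above all MKN45 control samples. SOX9 was also higher in AGS control samples (0.61, SE 0.11), and TCF7L2 by 0.42 (SE 0.10). FZD7 was at 8.71, 8.59 and 8.73 in AGS control samples, against 8.20, 8.14 and 8.09 in MKN45 control samples (0.53, SE 0.09, adjusted p = 7.51e-04 by limma), and its other probe showed no such difference (-0.01). LRP5 was at 9.03, 8.96 and 9.17 in AGS control samples, against 8.60, 8.54 and 8.68 in MKN45 control samples (0.44, SE 0.09, adjusted p = 0.00473 by limma). The dimmer probe of LRP5 did not pass (0.21, adjusted p = 0.173 by limma). FRAT2, AXIN1, RNF43 and LGR5 were higher in AGS control samples by 0.33 to 0.40. The dimmer probe of AXIN1 did not pass (0.09, adjusted p = 0.681 by limma). The calls of AXIN1 and RNF43 were lost without any one of 5 of the 6 control arrays and that of LGR5 without any one of 4 (LGR5 0.24, adjusted p = 0.196, without AGS control replicate 1), and TCF7L2 lost its call without AGS control replicate 3 (0.33, adjusted p = 0.0650).

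In the other direction, TNFRSF19 was lower in AGS control samples by the values above (-0.72, SE 0.10, adjusted p = 8.96e-05 by limma), so that its AGS ESRRG OE samples lay between the 2 control groups. CD44, a hyaluronan receptor, was at 8.48, 8.31 and 8.45 in AGS control samples, against 8.72, 8.80 and 8.84 in MKN45 control samples (-0.38, SE 0.09, adjusted p = 0.0123 by limma). The dimmer probes of CD44 did not pass (-0.03 and -0.11). The next were ZNRF3 at 7.91, 7.78 and 7.87 in AGS control samples, against 8.34, 8.04 and 7.98 in MKN45 control samples (-0.27), FZD4 at 7.18, 7.18 and 7.13, against 7.51, 7.32 and 7.45 in MKN45 control samples (-0.26), and AMER1 (-0.26). None of these 3 passed, although the control groups did not overlap. The control groups did not overlap for 21 of the 42 members tested and 31.0% of all genes tested. Under median scaling AXIN2 was the one member still higher in AGS, and TNFRSF19 and CD44 were still lower. With the probes of a gene averaged, neither TNFRSF19 (-0.17, adjusted p = 0.140) nor CD44 (-0.17, adjusted p = 0.114) passed, and CD44 also did not after background correction (-0.50, adjusted p = 0.0515) or without AGS control replicate 2 (-0.32, adjusted p = 0.0568) or MKN45 control replicate 3 (-0.35, adjusted p = 0.0664).

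Genes of the pathway outside the 57 were read from further lists. Over all genes tested, 49.2% passed in AGS and 39.1% in MKN45. Of 23 Wnt ligands with a probe, 3 were tested in AGS and 5 in MKN45, and only WNT6 (0.37) and WNT5B (-0.36) passed, both in MKN45. Of 14 genes for secreted inhibitors and their co-receptors, 4 were tested in each line. By their brightest probes KREMEN2 (0.36) and NOTUM (0.31) were higher in AGS and 0 passed in MKN45 by limma. In AGS the dimmer probe of NOTUM also passed (0.38) and that of KREMEN2 did not (0.12). A dimmer probe of KREMEN1 was higher in MKN45 (0.25, adjusted p = 0.0220 by limma). Of 7 further receptors, 4 were tested in AGS and 5 in MKN45. ROR1, a receptor of noncanonical Wnt ligands, fell by 0.55 in AGS and 0.56 in MKN45. In MKN45 LGR4 rose (0.44) and RYK was lower (-0.24, adjusted p = 0.0214 by limma), with the opposite sign under median scaling (0.08). The dimmer probes of RYK did not pass in MKN45 (-0.14 and -0.01). Of 20 further regulators, 15 were tested in AGS, where 2 rose and 6 fell (53.3% of those tested). In MKN45 14 were tested, and 2 rose and 4 fell (42.9%). The largest change was that of TAX1BP3, a PDZ protein that binds β-catenin. TAX1BP3 passed as lower in AGS (adjusted p = 1.97e-07 by limma) and in MKN45 (-0.77, SE 0.09). Next came CSNK1G1 in AGS (-0.53, and -0.02 without passing in MKN45). CHD8, a chromatin remodeler that binds β-catenin, fell in both lines (-0.47 in AGS and -0.44 in MKN45).

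Of 20 further targets, 16 were tested in each line, and 5 rose and 5 fell in AGS and 4 rose and 4 fell in MKN45, with a median of 0.03 and 0.02. The largest changes in AGS were those of JAG1 and CLDN1, and in MKN45 those of JAG1 and CCND1. JAG1, a Notch ligand, was at -1.10 in AGS (SE 0.11) and -1.40 in MKN45 (SE 0.08). CLDN1, a tight junction protein, was at 1.09 in AGS and 0.96 in MKN45 (SE 0.08 in both), and CCND1, cyclin D1, at -0.70 in AGS (SE 0.10) and -1.16 in MKN45 (SE 0.11). CCND1 and JAG1 were among the genes that the study itself picked from these arrays.

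Some calls were lost when 1 array was left out, which also lowered the number of calls over all probes within each line. In MKN45 that number was 3423 higher and 3493 lower with all arrays, and 2334 and 2357 without ESRRG OE replicate 2. In MKN45, SOX9 lost its call without control replicate 2 (0.25, adjusted p = 0.0977) or 3 (0.34, adjusted p = 0.0827) or without ESRRG OE replicate 1 (0.29, adjusted p = 0.103) or 2 (0.31, adjusted p = 0.114). DVL3 failed there without control replicate 1 (-0.25, adjusted p = 0.117) or 3 (-0.26, adjusted p = 0.131). It also failed without ESRRG OE replicate 2 (-0.28, adjusted p = 0.129), and LGR5 lost its call without control replicate 1 (-0.23, adjusted p = 0.0567). FZD2, FZD3, CSNK1D and ZNRF3 also lost their call in MKN45 without at least 1 array, as did FZD3, FRAT1, FRAT2 and BCL9 in AGS. The fall of ZNRF3 in MKN45 was -0.20 without control replicate 1 (adjusted p = 0.127). The difference of DVL3 between the lines did not pass without any one of 7 of the 12 arrays. All these p-values are from limma. The calls of 18 members in AGS and 6 in MKN45, among them those of TLE1, TLE2, WLS, AMER1, AXIN2 and DKK1 in both lines, held under each alternative that was run for them.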

How the data were processed

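Total RNA of 12 samples (4 groups, n = 3) was hybridized to Illumina Human BeadChip V4 arrays. The authors deposited, for each array, probe intensities and a detection p-value against negative controls, processed with GenomeStudio per the submitters' processing notes (its version is not given in the sources used here), and log2 values after quantile normalization. The deposited log2 values were used as given. Quantile normalization of the deposited intensities gave the same values within 5.00e-04. Each array listed 47323 probes, of which 30113 could be named for 1 gene and 8 for several, and 17202 had no name in the table used. Probes detected on an array numbered 18795 to 20397, and the median deposited intensity was 98.4 to 136.9.

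Groups were compared with limma 3.58.1 (lmFit and eBayes, R 4.3.3) on the log2 values of probes detected at p under 0.05 on at least 3 arrays, with Benjamini-Hochberg adjustment over all probes tested. Only the 6 arrays of a comparison were fitted, and all 12 for the difference between the lines. The fits were tested on simulated data. Alternatives were background correction with neqc (offset 16), median scaling of the intensities, other detection filters, 1 fit of all arrays, a replicate block, the methods' t-test, other ways to summarize the probes of a gene, and leaving out each array.

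No measured value entered the rule for the members, but they and the further gene lists were chosen with earlier results of these data known. Each of the 57 members was accounted for. Values per sample were given for members that passed with a log2 fold change of at least 0.5 in size and no overlap, for those that passed the test of the difference between the lines, for DVL3, LEF1, LGR5, TCF7L2, AXIN2 and CTNNB1, which the study followed by qRT-PCR, and for the 5 largest differences in each direction between the control groups. Values were also given for FZD5, FZD7, CSNK1E, BCL9L, MYC and others near that size. Same-numbered samples deviated together weakly or not at all (correlations of -0.09 to 0.22). The same number was the best match for some samples and not for others. Whether the numbers pair the samples is not given in the sources used here, and they were not treated as pairs. Promoter windows were taken from RefSeq.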

Additional observations from a re-analysis of the deposited data

Results flagged for a closer look

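The change with ESRRG OE differed between AGS and MKN45 by limma's interaction test for 8 members and for a second probe of 2 members, which is what singles these results out. The difference (AGS minus MKN45, log2 scale) was 0.61 for CSNK1E (adjusted p = 0.00182) and 0.57 for its second probe (adjusted p = 0.00228). It was 0.66 for TNFRSF19 (adjusted p = 0.00541), 0.64 for BCL9L (adjusted p = 0.00784) and 0.57 for MYC (adjusted p = 0.00771), genes that passed as higher in AGS and were below 0 without passing in MKN45. The second probe of MYC did not pass (0.38, adjusted p = 0.127). For TCF7L2 it was 0.67 (adjusted p = 0.0139), and for the second probe of CTNNB1 0.67 (adjusted p = 0.0447), while the brightest probe of CTNNB1 did not pass (0.46, adjusted p = 0.163). SOX9 (0.68, adjusted p = 0.0118) and TLE2 (0.50) rose in both lines and by more in AGS. DVL3 fell in both and by more in AGS (-0.52, adjusted p = 0.0302). Under median scaling 0 of the 8 members passed, with CSNK1E at 0.47 (adjusted p = 0.0714), TLE2 at 0.35 (adjusted p = 0.128) and DVL3 at -0.56 (adjusted p = 0.0502). Over all probes 183 differences passed as higher and 318 as lower under median scaling, against 915 and 869 with quantile normalization.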

How the results depend on the processing

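Median scaling left 6 members lower in AGS and 3 in MKN45, and raised the share of higher calls among the called members to 73.9% in AGS (57.7% with quantile normalization) and 76.9% in MKN45 (44.4%), with 71.3% (47.1%) and 89.5% (49.5%) over all probes. Under it 0 members passed limma's test of the difference between the lines (9 members at an unadjusted p under 0.05). Over all probes 183 differences passed as higher and 318 as lower, against 915 and 869 with quantile normalization. In AGS control samples 1 member was higher under median scaling. Under median scaling the MKN45 calls of FZD2 (0.01, adjusted p = 0.961) and RYK (0.08, adjusted p = 0.679) were lost with a change of sign. AXIN1, at -0.00 in MKN45 with quantile normalization, passed there as higher (0.28, adjusted p = 0.0496 by limma). Sign changes of genes that passed under neither normalization were not listed. The median over the members in MKN45 went from -0.11 to 0.10. Background correction left 3 members with a higher and 0 with a lower difference between the lines by limma (12 members at an unadjusted p under 0.05), and 3 higher in AGS control samples. Over all probes it left 484 higher and 485 lower differences between the lines. Student's t-test was also run on each probe by itself. A figure legend of the study names this test, while its methods name a random variance t-test, which was not run. After adjustment Student's t-test called 3 members higher and 5 lower in MKN45. Over all probes it called 2226 higher and 1840 lower there, against 3423 and 3493 by limma. At the study's unadjusted threshold of 0.001 it called 3 higher and 2 lower in AGS. In MKN45 it called 2 higher and 0 lower at that threshold (18 members at an unadjusted p under 0.05, and 7517 of all 20143 probes). The number of all probes passing at 0.001 was not counted. With the probes of a gene averaged, 1 member was lower in AGS control samples. The cause was not tested for any of these.

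Leaving out each array in turn gave 14 to 15 members higher and 9 to 12 lower in AGS, 6 to 8 higher and 6 to 13 lower in MKN45, 7 to 8 higher and 0 to 1 lower for the difference between the lines, and 6 to 7 higher and 1 to 4 lower for AGS control against MKN45 control. Fewest members were lower in MKN45 without control replicate 1 or ESRRG OE replicate 2 (6 each). The count of members lower in AGS control samples was 4 without MKN45 control replicate 2 and 1 without AGS control replicate 2 or MKN45 control replicate 3. With a replicate block, 15 members were higher and 11 lower in AGS, 8 and 12 in MKN45, 8 and 1 for the difference and 10 and 2 between the control groups. The block lost 0 calls of members and added PYGO2 and FOSL1 in MKN45, FOSL1 for the difference and TLE1 between the control groups. Whether the numbers pair the samples is not known. Signal over background limits the dim members. The lowest log2 value of a detected probe was 6.96 to 7.01, so quantile normalized changes of LGR5, TLE2 and FRAT1 were smaller than after background correction (FRAT1 0.25 against 0.72 in AGS).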
